A study of Homo sapiens with 9 samples.

Results

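The genes described here encode 2-oxoglutarate-dependent dioxygenases. They are the 49 genes of the deposited expression table, out of 36650, whose symbol is on a list of histone demethylases, TET enzymes, prolyl, lysyl and asparaginyl hydroxylases and ALKBH proteins. They were picked by symbol, with no threshold on a measured value. The cells were 16D, a castration-resistant prostate cancer line. Every group carried a CRISPR knockout of OGDHL made with lentiviral Cas9 and 1 guide, had adapted for 6 weeks to enzalutamide, an inhibitor of the androgen receptor, and was kept at 10 µM enzalutamide. The groups differed in a second lentivirus, which carried enhanced green fluorescent protein (eGFP), full-length OGDHL that the guide no longer cuts, or an equally guide-resistant OGDHL without its mitochondrial targeting sequence (dMTS). Each group had 3 libraries, and no group of unedited or untreated cells was analysed here. Neither the promoter of these viruses nor whether the knockout cells were 1 clone is given in the sources used here.

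Enzymes of this family bind iron, oxygen and 2-oxoglutarate, oxidise a protein, nucleic acid or lipid, and release succinate and carbon dioxide. The 2-oxoglutarate they consume is also the substrate of the mitochondrial 2-oxoglutarate dehydrogenase complex, whose E1 subunit has OGDHL as a close relative. Through histone and DNA demethylation the family acts on chromatin, through the prolyl hydroxylases it sets the stability of the hypoxia-inducible factors (HIF), and in the endoplasmic reticulum it modifies collagen. The data are mRNA levels, so they bear on how much transcript of each enzyme was present and not on its activity.

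Levels are given as normalised reads per 1000000 (normalised RPM), computed from the deposited values. The length given with these values is each gene's genomic span, introns included. Division by that span was inferred, since multiplication by it put most low values near whole reads. The products were taken as proportional to reads. Estimated depth, in units of 1000000 reads, was 86.3 to 121 per library. OGDHL itself was at 10.2, 10.1 and 10.4 normalised RPM in the eGFP libraries, 1902, 1465 and 2214 with full-length OGDHL and 703, 1223 and 1071 with dMTS OGDHL, so both rescue groups lay above eGFP in every library. OGDHL mRNA does not check the knockout, because an edited transcript can still be read. The 7 luminal prostate markers summed to 4807 to 5218 normalised RPM. The summed markers reached at most 0.873 for basal cells, 0.118 for leukocytes, 1.62 for endothelial cells and 2.85 for neuroendocrine cells, and 11.7 to 19.0 for fibroblasts, nearly all from COL1A1. The listed markers KRT5 (basal), CD3E (leukocyte) and INSM1 (neuroendocrine) were absent from the deposited values, so these sums lack them. Reads from mitochondrially encoded genes made up 14.8% to 22.5% of each library.

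Of the 49 dioxygenase genes, 47 had at least 0.5 RPM in at least 3 libraries and were tested. The 2 under this filter were RIOX1, a ribosomal oxygenase, at 0.00 to 0.06 normalised RPM, and TMLHE, the first enzyme of carnitine synthesis, at 0.13 to 0.32. Per kilobase of exon, the mean level of the 47 over the 9 libraries ran from 0.165 for PLOD2 to 55.1 for ALKBH5, with a median of 5.31. ALKBH5 removes the methyl group of N6-methyladenosine from mRNA. After it came JMJD8 at 38.8, PHYH at 34.9, P4HA1 at 33.5, KDM6A at 24.8 and PLOD1 at 22.3 per kilobase of exon. The difference between PHYH (SD 1.32 over the 9 libraries) and P4HA1 (SD 4.38) was smaller than the SD of P4HA1. At the low end, TET1 was at 0.269 and KDM8 at 0.825.

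**Figure D1:**
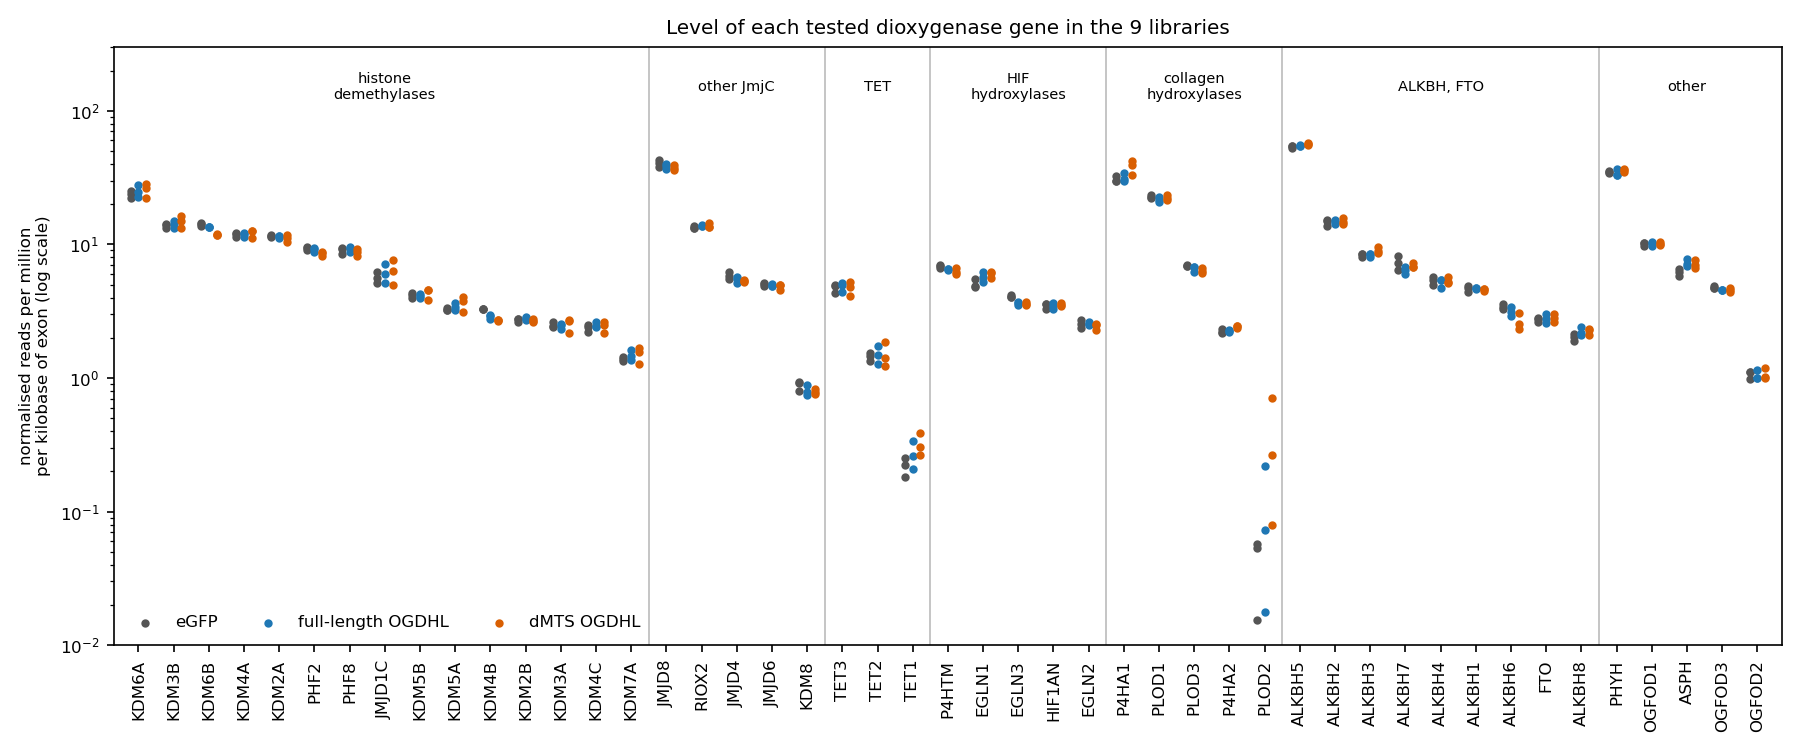
Level of each tested dioxygenase gene as normalised RPM per kilobase of exon, on a log scale, with 1 point per library and the groups in colour. Genes are ordered by mean level within 7 role groups. ALKBH5 is highest at a mean of 55.1, PLOD2 is lowest at 0.165, and the points of most genes lie close together.

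Most of these genes varied little. The coefficient of variation over all 9 libraries had a median of 5.94% and was at most 10% for 41 of the 47 genes. ALKBH5 varied least, at 2.33%, and PLOD2 most, at 134%.

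With full-length OGDHL against eGFP, none of the 47 dioxygenase genes passed the test (limma, Benjamini-Hochberg over all 17965 genes tested, adjusted p under 0.05), where 0.0111% of all genes passed. Only OGDHL and CDKN1A, a cell-cycle inhibitor that was lower, passed there. At an unadjusted p under 0.05 there were 4 of the 47 (8.51%, against 9.55% of all genes), and limma-voom on estimated reads also called 0. Groups did not overlap for 8 of the 47, 2 above and 6 below eGFP, against 17.8% of all genes. The median log2 fold change was 0.01 over the 47 and -0.00 over all genes. The labels do not say that the libraries of a group came from separate cultures, so the p-values measure the spread between these libraries, which may be technical. These are bulk libraries, in which fewer cells expressing a gene and less RNA per cell cannot be told apart.

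Against eGFP, dMTS OGDHL changed 5 of the 47 genes, 10.6%, against 13.3% of all genes tested. KDM4B, KDM6B, EGLN3 and ALKBH6 were lower and P4HA1 was higher. Over all genes 4.84% were higher and 8.47% lower, so the share and the lean of the family were near those of the whole table. The libraries did not overlap for 16 of the 47, 8 above and 8 below eGFP, which is 34% against 33.3% of all genes. The median log2 fold change was 0.01 both over the 47 and over all genes. Without the rescaling of libraries, 11.3% of all genes passed and 4 of the 47, all lower, since P4HA1 had an adjusted p of 0.0645.

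Between dMTS and full-length OGDHL, none of the 47 passed (limma, adjusted p under 0.05), where 0.0167% of all genes did. Those were IGF1R, H2BC21 and SPRY4, all lower with dMTS. At an unadjusted p under 0.05 there were 6 of the 47 (12.8%, against 16.1% of all genes), and limma-voom called 0. Groups did not overlap for 5, against 17.8% of all genes. The comparisons with eGFP share the eGFP libraries, so their values are set side by side below and are not independent of each other. A p that misses the threshold does not show that both forms of OGDHL act alike on these genes.

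**Figure D2:**
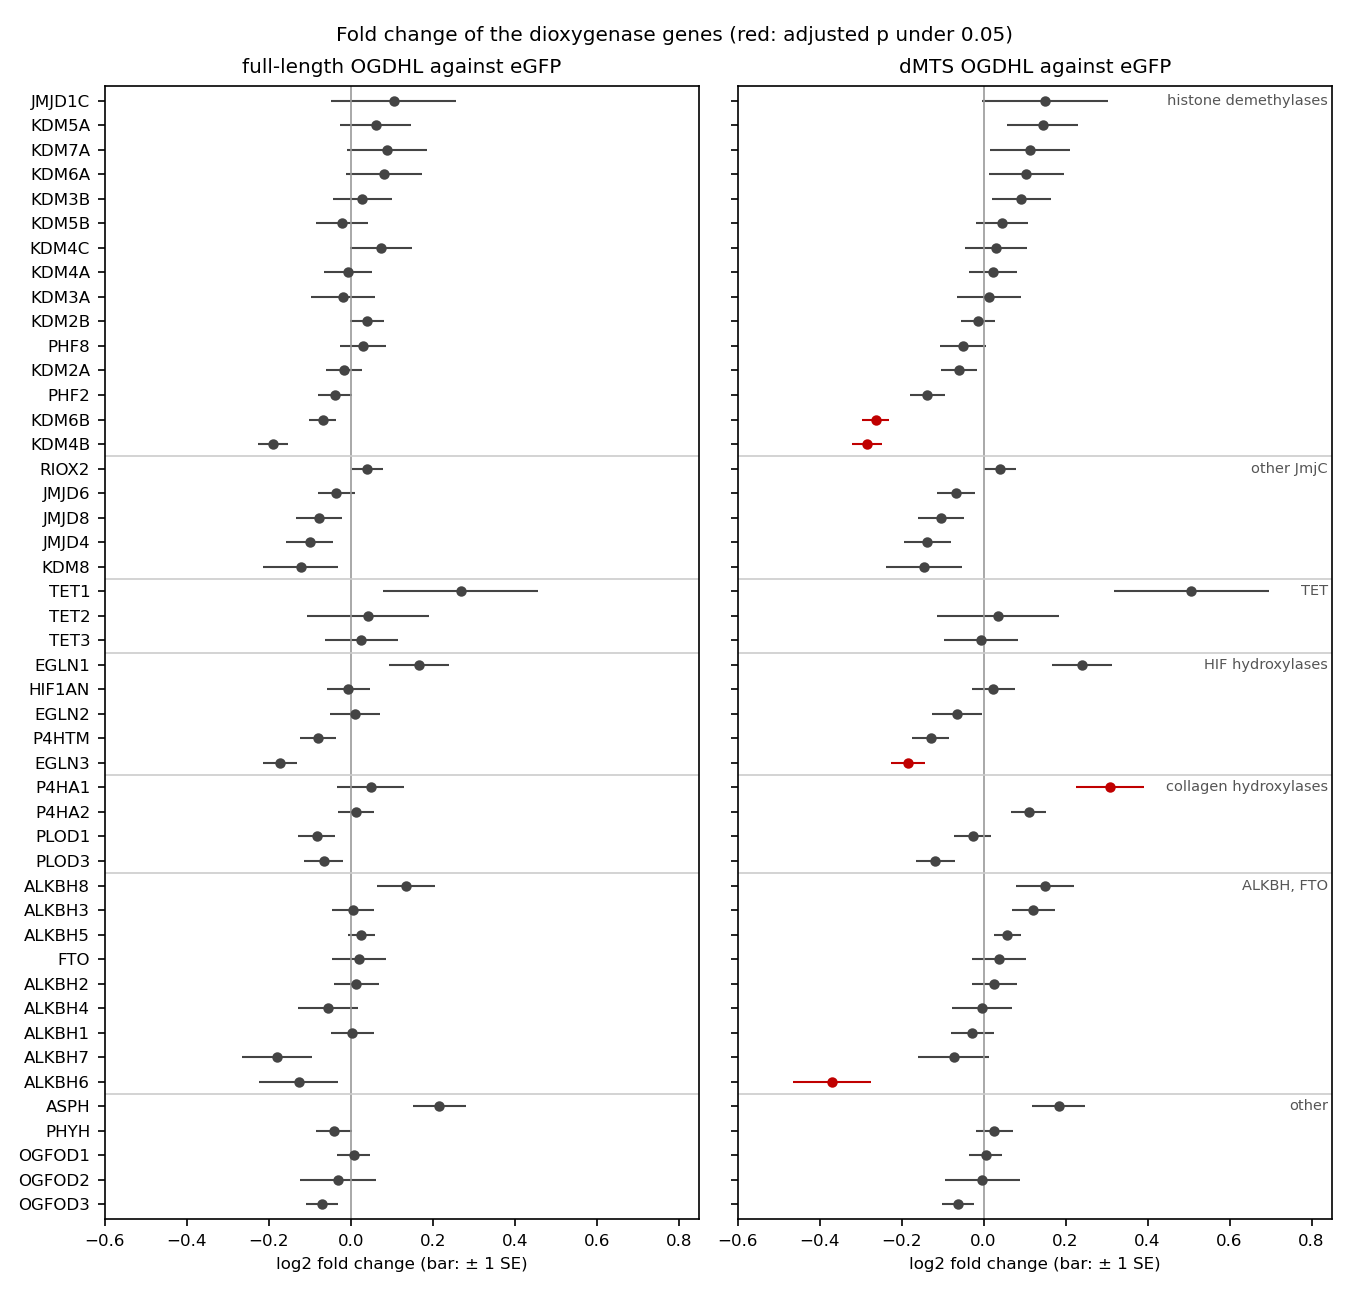
Log2 fold change (horizontal axis, bar ± 1 SE) of 46 tested dioxygenase genes, with full-length OGDHL on the left and dMTS OGDHL on the right, each against eGFP. Red marks an adjusted p under 0.05, which holds for no gene on the left and for KDM4B, KDM6B, EGLN3, P4HA1 and ALKBH6 on the right. PLOD2 lies outside the axis, at 0.73 and 2.37, and is not drawn.

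Among the 15 histone lysine demethylases, KDM4B and KDM6B were called lower with dMTS OGDHL, and the other 13 did not pass the test. That is 13.3% called, the same as the 13.3% of all genes. KDM4B removes methyl groups from repressive lysine marks on histone H3 and is known as a coactivator of the androgen receptor. KDM4B (ENSG00000127663, GRCh38 chr19:4969113-5153598, plus strand) was at 48.3, 48.5 and 48.3 normalised RPM in the eGFP libraries, 42.7, 40.8 and 43.7 with full-length OGDHL and 39.7, 39.9 and 39.5 with dMTS. The 3 groups did not overlap, with eGFP highest and dMTS lowest. With dMTS, KDM4B fell by 17.9% (log2 fold change -0.28, SE 0.04, limma adjusted p = 0.00272). With full-length OGDHL its log2 fold change was -0.19 (SE 0.04, adjusted p = 0.211), and dMTS against full-length gave -0.09 (adjusted p = 0.246). The mean of the deposited values of KDM4B was 0.77 TPM, with an inferred division by a span of 184 kilobases, and a filter at 1 TPM would drop it.

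KDM6B removes the repressive mark that the Polycomb enzyme EZH2 places on histone H3. KDM6B (ENSG00000132510, chr17:7834217-7854796, plus strand) was at 99.9, 103 and 106 normalised RPM with eGFP, 98.8, 97.9 and 97.9 with full-length OGDHL and 86.7, 85.5 and 85.2 with dMTS. All 3 dMTS libraries lay below the other 6. With dMTS, KDM6B fell by 16.6% (log2 fold change -0.26, SE 0.03, limma adjusted p = 0.00252). The full-length group was at -0.07 (adjusted p = 0.551), and dMTS against full-length gave -0.19, with an adjusted p of 0.0660 that missed the threshold. KDM6A, the X-linked enzyme for the same mark and the most abundant demethylase here, was at 0.10 with dMTS (SE 0.09, adjusted p = 0.477). Its 3 eGFP values of 158 to 179 lay within the dMTS range of 160 to 201 except for the lowest.

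PHF2, another demethylase, was at 53, 53 and 51 with eGFP, 52, 49 and 52 with full-length OGDHL and 48, 49 and 46 with dMTS. The dMTS libraries were all below the rest, with a log2 fold change against eGFP of -0.14 and a limma adjusted p of 0.0596. JMJD1C, which the wide spread sets apart, had eGFP values of 57.1 to 68.7, full-length values of 57.3 to 79.3 and dMTS values of 55.2 to 85.1. Its groups overlapped and its log2 fold change of 0.15 with dMTS had an SE of 0.15. The median log2 fold change of the 15 demethylases with dMTS was 0.02, and their values ran from -0.28 to 0.15.

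The other JmjC proteins include JMJD6 and KDM8, hydroxylases of protein residues, and RIOX2, a ribosomal histidine hydroxylase. None of the 5 tested passed in any comparison (limma, adjusted p under 0.05), nor by limma-voom, where 13.3% of all genes passed with dMTS against eGFP. With dMTS 1 of them, JMJD4, had an unadjusted limma p under 0.05 (20%, against 30.4% of all genes). JMJD4 was at 25.2, 23.9 and 26.8 with eGFP and 23.3, 22.5 and 23.0 with dMTS, which did not overlap (log2 fold change -0.14, adjusted p = 0.136). RIOX2 was the most even, between 91.3 and 99.9 in all 9 libraries. The largest fold change of these genes in both comparisons with eGFP was that of KDM8, at -0.12 with full-length and -0.15 with dMTS OGDHL.

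The TET enzymes oxidise 5-methylcytosine in DNA. None of the 3 passed in any comparison (limma, adjusted p under 0.05), nor by limma-voom, where 13.3% of all genes passed limma with dMTS against eGFP. TET1, at 2.36, 2.08 and 1.68 normalised RPM with eGFP, 2.42, 1.95 and 3.12 with full-length OGDHL and 2.44, 3.57 and 2.83 with dMTS, was the only one with an unadjusted p under 0.05. All 3 dMTS values were above the eGFP values, with a log2 fold change of 0.51 (SE 0.19, adjusted p = 0.102). A processed pseudogene, COX20P1, lies within TET1 on the same strand and had 269% of its reads. TET2 ranged from 22.2 to 25.2 with eGFP and from 20.2 to 30.8 with dMTS, and TET3 from 53.1 to 61.2 and from 50.7 to 64.1, so both overlapped.

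The HIF hydroxylases mark HIF alpha subunits, and EGLN1, EGLN2 and EGLN3 do so at prolines that VHL then recognises. Of the 5 genes, 1 was called with dMTS OGDHL (20%, against 13.3% of all genes), EGLN3, which was lower. The call held in 14 of 18 alternative settings. EGLN3 is itself a textbook HIF target gene. EGLN3 (ENSG00000129521, GRCh38 chr14:33924227-34462774, minus strand) was at 29.9, 30.7 and 29.5 normalised RPM with eGFP, 26.1, 26.8 and 27.0 with full-length OGDHL and 27.3, 25.7 and 26.3 with dMTS. Every eGFP library lay above all 6 OGDHL libraries, while the 2 rescue groups overlapped. With dMTS, EGLN3 fell by 12% (log2 fold change -0.18, SE 0.04, limma adjusted p = 0.0203), while full-length OGDHL gave -0.17 (SE 0.04, adjusted p = 0.304). The difference between the rescue groups was -0.01 (SE 0.04, adjusted p = 0.938). The EGLN3 model in the file spans 539 kilobases and shares 29453 bases on the same strand with SPTSSA, so their reads may be split. SPTSSA moved the other way with dMTS, at a log2 fold change of 0.39 (adjusted p = 0.00332).

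EGLN1, the main oxygen-dependent HIF prolyl hydroxylase in most cells, was at 40.2, 35.1 and 35.2 with eGFP, 41.1, 38.0 and 44.8 with full-length OGDHL and 40.8, 45.2 and 44.4 with dMTS. The dMTS libraries were all above the eGFP libraries, the nearest by less than the spread within eGFP, and the log2 fold change of 0.24 (SE 0.07) had a limma adjusted p of 0.0566. P4HTM, a transmembrane prolyl hydroxylase, was below eGFP without overlap in both groups, at -0.08 with full-length (adjusted p = 0.594) and -0.13 with dMTS OGDHL (adjusted p = 0.0796). The reads of P4HTM may be shared with WDR6, whose gene overlaps it by 92 bases on the same strand. EGLN2 was at -0.07 with dMTS, and HIF1AN, the asparaginyl hydroxylase that limits HIF coactivator binding, at 0.02 (adjusted p = 0.507 and 0.784).

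Of the 5 collagen hydroxylases, 1 was called with dMTS OGDHL (20%, against 13.3% of all genes). It was P4HA1, which was higher, a catalytic subunit of collagen prolyl 4-hydroxylase and a known HIF target. The call held in only 8 of 20 alternative settings. It was lost without rescaling and without dMTS replicate 2 or 3. P4HA1 (ENSG00000122884, GRCh38 chr10:73007217-73096974, minus strand) was at 99.8, 92.7 and 92.1 normalised RPM with eGFP, 96.0, 92.3 and 106 with full-length OGDHL and 103, 121 and 130 with dMTS. The dMTS values were above all eGFP values but overlapped the full-length ones. P4HA1 was 23.8% higher with dMTS than with eGFP (log2 fold change 0.31, SE 0.08, limma adjusted p = 0.0370). It was at 0.05 with full-length OGDHL (adjusted p = 0.863), and dMTS against full-length gave 0.26 (adjusted p = 0.176). P4HA2, another catalytic subunit, was between 18.5 and 19.8 with eGFP and between 20.1 and 20.8 with dMTS, without overlap (log2 fold change 0.11, adjusted p = 0.122).

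The summed fibroblast markers, nearly all COL1A1, were 16.8 to 19.0 normalised RPM with eGFP and 11.7 to 16.1 with dMTS. COL1A1 itself was lower with dMTS (log2 fold change -0.41, SE 0.11, limma adjusted p = 0.0360). COL1A2, COL3A1, DCN and LUM were each at most 0.626 in any library. The part of these markers in the results was not tested. PLOD2, which hydroxylates the lysines of collagen telopeptides, had the lowest level per kilobase and the widest spread. PLOD2 was at 0.41, 0.12 and 0.44 normalised RPM with eGFP, 0.56, 0.13 and 1.66 with full-length OGDHL and 0.60, 2.03 and 5.41 with dMTS, from 12 to 597 estimated reads. The dMTS values were above the eGFP values. The coefficient of variation of PLOD2 over the 9 libraries, 134%, was the highest of the 47 tested genes. The log2 fold change of 2.37 had an SE of 0.81 and a limma adjusted p of 0.0784. Without dMTS replicate 1 the adjusted p was 0.0138, and without dMTS replicate 3 the log2 fold change was 1.65, while a pseudocount of 1 gave 1.26. PLOD1 and PLOD3, its paralogs, were at -0.03 and -0.12 with dMTS (adjusted p = 0.724 and 0.125), with PLOD3 below eGFP without overlap.

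**Figure D3:**
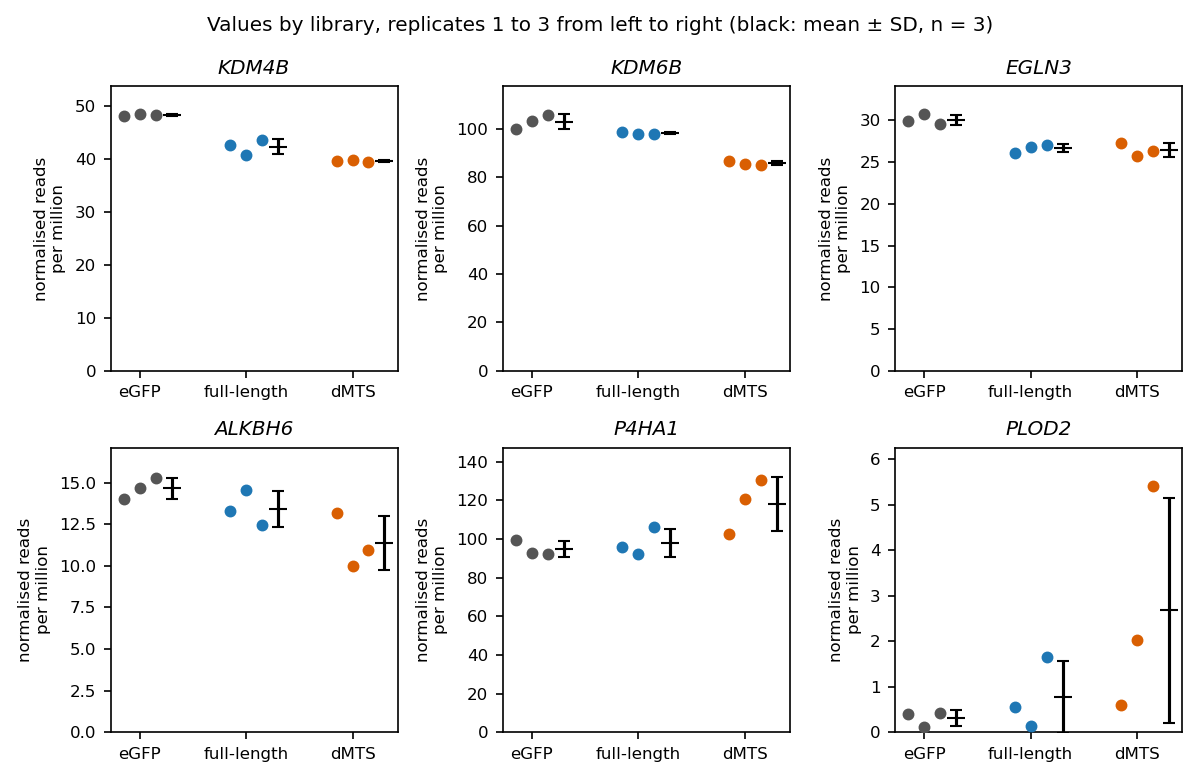
Normalised RPM in each library for the 5 genes called with dMTS OGDHL and for PLOD2, with the mean ± SD of each group (n = 3) in black and every axis starting at 0. In KDM4B the 3 groups are apart, in EGLN3 both OGDHL groups lie together below eGFP, and in PLOD2 the dMTS libraries run from 0.60 to 5.41.

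The promoters of KDM4B, EGLN3, P4HA1 and PLOD2 are shown as examples of genes known to respond to HIF. They were picked with their values known, and other genes of the family that respond to HIF are not shown. With dMTS OGDHL, KDM4B and EGLN3 fell, P4HA1 rose and PLOD2 did not pass the test. Each line gives the 250 bases before the RefSeq start site, read 5′ to 3′ on the gene's strand. Coordinates are of GRCh38.p14, and capitals mark ACGTG on either strand (so also CACGT), a form of the core that HIF binds. The form GCGTG was neither marked nor counted.
KDM4B, chr19:4968863-4969112, plus strand: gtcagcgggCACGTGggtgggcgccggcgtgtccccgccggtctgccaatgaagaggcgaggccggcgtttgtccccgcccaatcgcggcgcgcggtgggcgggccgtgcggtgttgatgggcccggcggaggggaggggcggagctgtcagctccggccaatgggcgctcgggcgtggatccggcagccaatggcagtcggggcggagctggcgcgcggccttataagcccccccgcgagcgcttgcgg
EGLN3, chr14:33951075-33951324, minus strand: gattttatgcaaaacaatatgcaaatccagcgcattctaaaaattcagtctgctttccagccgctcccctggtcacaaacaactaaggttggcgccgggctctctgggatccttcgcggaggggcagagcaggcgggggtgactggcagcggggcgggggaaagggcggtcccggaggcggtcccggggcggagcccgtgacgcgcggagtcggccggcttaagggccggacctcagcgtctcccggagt
P4HA1, chr10:73096867-73097116, minus strand: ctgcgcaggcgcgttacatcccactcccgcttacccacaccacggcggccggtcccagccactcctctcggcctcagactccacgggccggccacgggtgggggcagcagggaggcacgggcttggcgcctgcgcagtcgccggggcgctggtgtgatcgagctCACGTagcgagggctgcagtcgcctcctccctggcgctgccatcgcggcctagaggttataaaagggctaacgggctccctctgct
PLOD2, chr3:146161185-146161434, minus strand: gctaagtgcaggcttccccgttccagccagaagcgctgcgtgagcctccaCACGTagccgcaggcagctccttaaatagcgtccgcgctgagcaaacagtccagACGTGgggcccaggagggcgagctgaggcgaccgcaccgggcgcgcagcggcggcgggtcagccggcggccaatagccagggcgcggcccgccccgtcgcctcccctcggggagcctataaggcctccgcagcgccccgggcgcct
The P4HA1 window held the letters once, 86 bases before the start, and the PLOD2 window at 200 and 146 bases. In KDM4B the matches on the 2 strands, at 241 and 240 bases, overlap in 1 palindrome, and the EGLN3 window held none. Of the 49 genes, 45 matched the RefSeq promoter table with 64 windows, and 13 windows (20.3%) of 12 genes held the letters, against 18.5% of all 35116 windows. A match is a description of the sequence and not a measured site.

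The ALKBH proteins demethylate or otherwise oxidise nucleic acids and proteins, and FTO demethylates mRNA. Of the 9 genes, 1 was called with dMTS OGDHL (11.1%, against 13.3% of all genes). It was ALKBH6, which was lower, a nuclear member whose substrate is not well defined. The call held in only 10 of 20 alternative settings. ALKBH6 (ENSG00000239382, GRCh38 chr19:36009120-36014239, minus strand) was at 14.0, 14.7 and 15.3 normalised RPM with eGFP, 13.3, 14.6 and 12.4 with full-length OGDHL and 13.2, 10.0 and 11.0 with dMTS. The dMTS libraries were below the eGFP libraries, with dMTS replicate 1 nearest to them, and overlapped the full-length range. With dMTS, ALKBH6 fell by 22.6% (log2 fold change -0.37, SE 0.10, limma adjusted p = 0.0330). Full-length OGDHL gave -0.13 (adjusted p = 0.684) and dMTS against full-length -0.24 (adjusted p = 0.250).

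The mRNA demethylases did not pass. ALKBH5 was at 168, 174 and 175 with eGFP and 176, 178 and 183 with dMTS, which did not overlap (log2 fold change 0.06, SE 0.03, adjusted p = 0.267). FTO was between 56.5 and 60.4 with eGFP and between 55.7 and 64.9 with dMTS (0.04, SE 0.07, adjusted p = 0.727). ALKBH3, a repair enzyme for alkylated bases, had dMTS values of 20.3 to 22.7 above eGFP values of 19.00 to 20.04 (0.12, adjusted p = 0.149). With full-length OGDHL the largest fold change of these genes was that of the mitochondrial protein ALKBH7, at -0.18 (adjusted p = 0.548).

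Of the other hydroxylases, ASPH hydroxylates aspartate and asparagine in epidermal growth factor-like domains. ASPH was at 132, 125 and 117 normalised RPM with eGFP, 144, 137 and 155 with full-length OGDHL and 133, 153 and 140 with dMTS. Both OGDHL groups lay above eGFP in every library, dMTS replicate 1 only just. Its log2 fold change was 0.22 (SE 0.06, limma adjusted p = 0.393) with full-length and 0.18 (adjusted p = 0.0876) with dMTS OGDHL, so neither passed. PHYH, the peroxisomal enzyme of phytanic acid breakdown and the most abundant of this group per kilobase of exon, stayed between 111 and 123. OGFOD1, a prolyl hydroxylase of a ribosomal protein, ranged from 56.8 to 60.6.

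Many of these genes shared an order of libraries within groups. The libraries eGFP replicate 1, full-length replicate 3 and dMTS replicate 2 had the lowest share of mitochondrial reads and the highest estimated depth of their groups. In 15 of the 47 genes (31.9%) these 3 libraries were each the highest of their group, against 17.2% of all genes tested. Among them are JMJD1C, TET2 and KDM6A. The share was 8 of 17 for dioxygenase genes with a span of at least 100 kilobases (47.1%, against 35.4% of all such genes) and 7 of 30 for shorter ones (23.3%, against 13.6%). For each of the 5 genes called with dMTS, the dMTS and eGFP libraries did not overlap, against 33.3% of all genes. A call by p favours such genes, so this says nothing about the shared order. With the mitochondrial share of reads as a covariate, a fit added after the values were seen, 8 of the 47 were called with dMTS (17.9% of all genes), the 5 and ASPH, EGLN1 and PHF2. In that fit ASPH and KDM4B passed with full-length OGDHL (0.657% of all genes), and KDM6B passed between the rescue groups (3.21% of all genes).

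**Figure D4:**
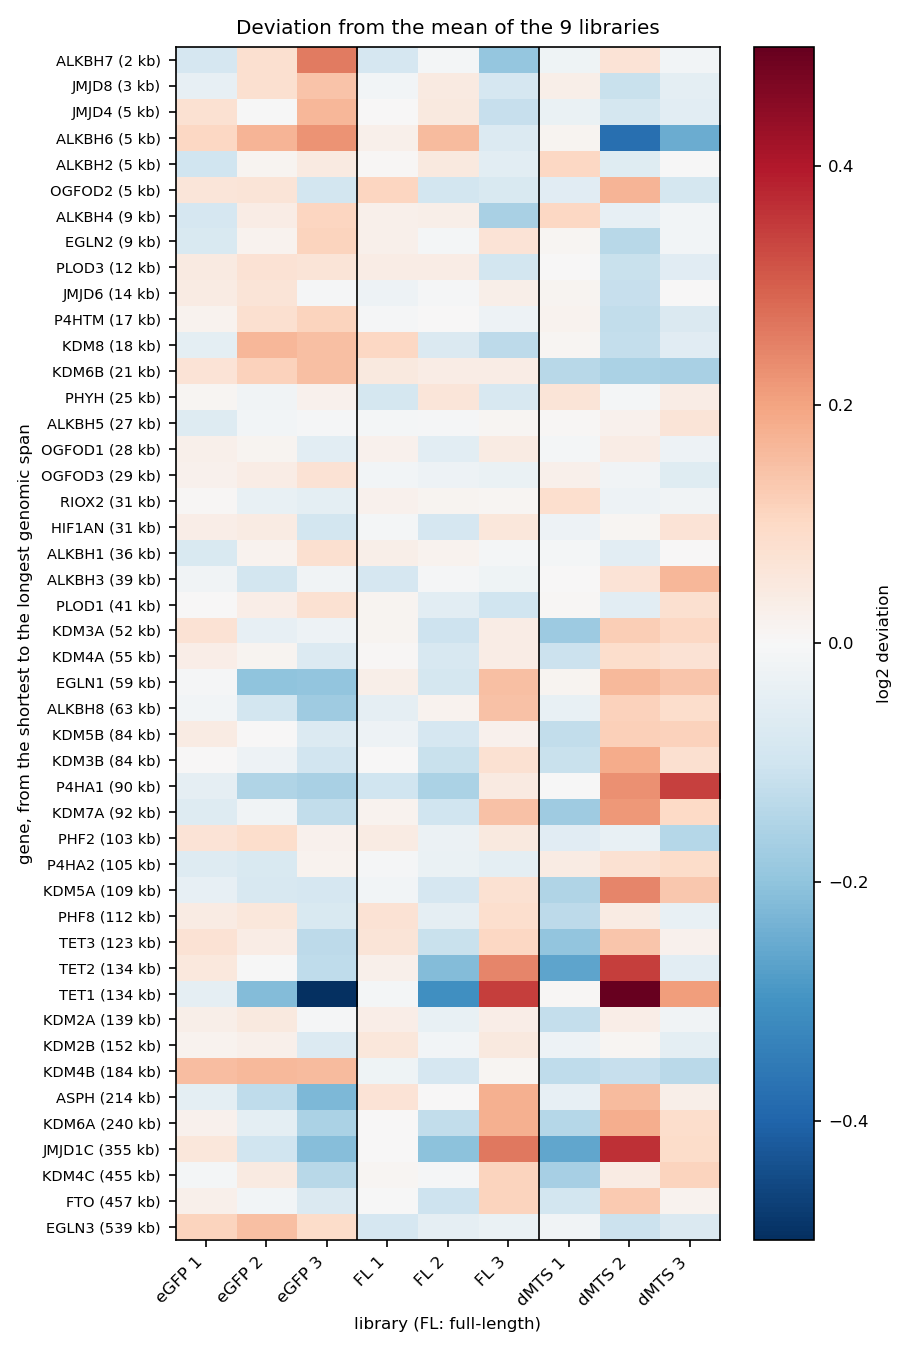
Deviation of each library from the gene's mean over the 9 libraries, on the log2 scale with colours capped at 0.5, for 46 dioxygenase genes ordered by genomic span. PLOD2 is not drawn. Long genes such as JMJD1C and TET2 are high in full-length replicate 3 and dMTS replicate 2 and low in dMTS replicate 1, while KDM4B and EGLN3 are high in all 3 eGFP libraries.

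Of the 49 genes, 35 overlap another gene in the table, and for 22 that gene had at least 10% of their reads. The library kit keeps strand, but whether the counting used it is not given in the sources used here, so reads of opposite genes may not be told apart. Of the 5 called genes, EGLN3 is the one with such a neighbour.

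The dMTS calls differed in how far they depended on the processing. KDM4B was called in all 18 alternatives in which it was tested, with adjusted p from 0.000544 to 0.0233. KDM6B was called in 19 of 20, the exception being the TPM as deposited, with an adjusted p of 0.574. EGLN3 was called in 14 of 18 (0.00742 to 0.0890), ALKBH6 in 10 of 20 (0.00196 to 0.202) and P4HA1 in 8 of 20 (0.00225 to 0.434). All 5 kept their direction throughout. Leaving out 1 library left from 2 called genes, KDM4B and KDM6B, without eGFP replicate 2, dMTS replicate 2 or dMTS replicate 3, to 12 without dMTS replicate 1, where 23.7% of all genes passed. The genes added without dMTS replicate 1 were ASPH, EGLN1, KDM5A, P4HTM, PHF2, PLOD2 and TET1. Of its group, that library had the least OGDHL, the highest mitochondrial share of reads (22.1%) and the lowest estimated depth. These traits cannot be told apart here, and their part was not tested. Without that library 3 of the 47 also passed between dMTS and full-length OGDHL, ALKBH6, KDM6B and P4HA1, where 9.64% of all genes did.

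**Figure D5:**
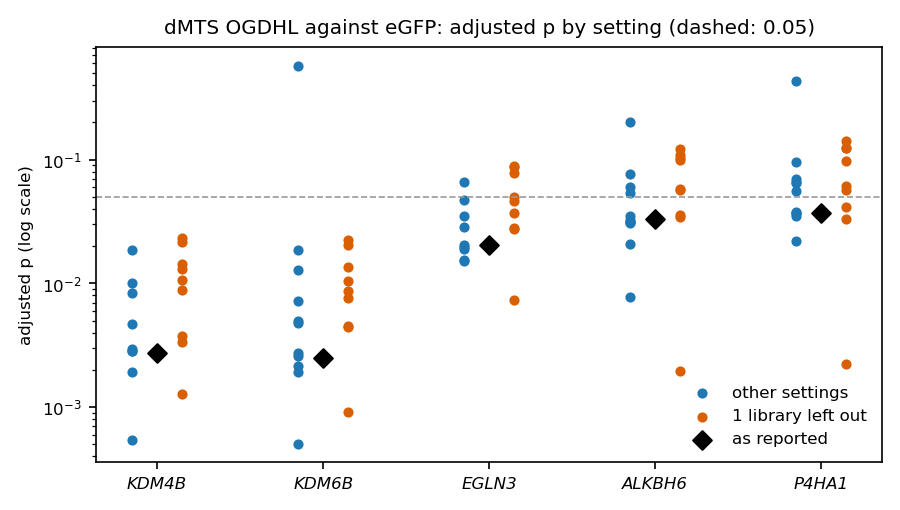
Adjusted p (log scale) of the 5 called genes for dMTS OGDHL against eGFP, as reported (diamond), with 1 library left out (orange) and under the other settings (blue), with 0.05 dashed. KDM4B stays below the line everywhere and KDM6B in all but 1 setting, while ALKBH6 and P4HA1 cross it often.

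Genes around the dioxygenases were counted from lists by role. These lists were chosen with earlier results of these data known, so their counts describe the data and are no independent support. Of 18 tested HIF target genes outside the family, dMTS OGDHL raised 8 and lowered 0, against 4.84% of all genes raised, with a median log2 fold change of 0.23. The 8 were LDHA, PGK1 and HK2 of glycolysis, the mitophagy receptors BNIP3 and BNIP3L, the oxidoreductase ERO1A, MXI1 and DDIT4. BNIP3 had the largest fold change (0.35, SE 0.10, limma adjusted p = 0.0406), from 81.9 to 89.8 normalised RPM with eGFP to 95.8 to 129 with dMTS. It missed the threshold without rescaling (limma adjusted p = 0.0511) and without dMTS replicate 2 or 3. The number raised ran from 0 with the TPM as deposited, through 3 without dMTS replicate 3 or eGFP replicate 3, to 11 without dMTS replicate 1. The list leaves out the HIF-responsive genes of the family. Of those shown above, EGLN3 and KDM4B were lower with dMTS, P4HA1 was higher and PLOD2 was not called. Of 8 HIF subunits and VHL partners, 1 was called with dMTS (12.5%, against 13.3% of all genes). It was EPAS1, which encodes HIF-2 alpha and was lower (log2 fold change -0.50, SE 0.08, limma adjusted p = 0.00692). EPAS1 went from 5.48 ± 0.101 with eGFP to 3.84 ± 0.0851 with dMTS (SD, n = 3).

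Of 24 genes for histone and DNA methyltransferases and their partner proteins, dMTS OGDHL lowered 4 (16.7%, against 8.47% of all genes lowered) and raised 0. They were KMT2B, SETD1A and SETD1B, which methylate the promoter-associated lysine of histone H3, and DOT1L. KMT2B fell most (log2 fold change -0.46, SE 0.05, limma adjusted p = 0.00152), from 39.0 ± 1.70 to 28.4 ± 1.61 normalised RPM (SD, n = 3). The median of the 24 was -0.03. Of 12 m6A writers and readers none passed by limma, where 13.3% of all genes did, and limma-voom called 0. An unadjusted limma p under 0.05 held for 2 (16.7%, against 30.4% of all genes).

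Of 24 enzymes that make or use 2-oxoglutarate, succinate or fumarate, PSAT1 rose and D2HGDH fell with dMTS OGDHL (8.33%, against 13.3% of all genes called). PSAT1, a serine synthesis enzyme that releases 2-oxoglutarate, was at 159 ± 2.51 with eGFP, 179 ± 3.36 with full-length and 204 ± 4.41 with dMTS (SD, n = 3), with a log2 fold change of 0.36 for dMTS (SE 0.03, limma adjusted p = 0.000809). D2HGDH, which oxidises D-2-hydroxyglutarate to 2-oxoglutarate, was at -0.19 (adjusted p = 0.0334). Of 11 other 2-oxoglutarate oxygenases tested, 1 was called (9.09%). It was P3H2, a collagen prolyl 3-hydroxylase, which was lower (-0.38, limma adjusted p = 0.0123). Of 6 collagen folding partners tested, 1 was called (16.7%, against 13.3% of all genes). It was COLGALT1, which was lower (-0.14, limma adjusted p = 0.0323). COLGALT1 missed the threshold in many settings, among them no rescaling (limma adjusted p = 0.0539) and the replicate block (0.0832). With full-length OGDHL against eGFP and with dMTS against full-length OGDHL, no gene of these 7 lists passed by limma or limma-voom. At an unadjusted p under 0.05 there were 0% to 18.2% of a list's tested genes in the first comparison, against 9.55% of all genes. In the second there were 0% to 61.1%, against 16.1% of all genes, the highest share being 11 of the 18 HIF targets.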

How the data were processed

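Messenger RNA of 9 libraries (3 groups of 3) was prepared with a stranded poly(A) kit, per the labels' protocols. The authors deposited transcripts per 1000000 (TPM) for 36650 genes. The submitters' processing notes name STAR and the build GRCh38, without versions. Sources used here do not give the quantifier or annotation. In all rows the length equals the genomic span. TPM times length gave reads per 1000000 (RPM), of which values under 20 reads lay within 0.01 of whole reads in 72.3% to 74.9% of cases, so depth is an estimate and no counting interval is given.

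RPM were rescaled to a median log2 ratio of 0 over tested genes (shifts removed -0.04 to 0.07). Genes with at least 0.5 in at least 3 libraries, 17965, were fitted with limma 3.58.1 (R 4.3.3, with the package data.table, version 1.17.8) on log2(value + 0.1), all 9 libraries, two-sided, Benjamini-Hochberg, call at an adjusted p under 0.05. Log2 fold changes are on this scale, which understates changes of low genes. A TPM filter (at least 1 in 3 libraries) would keep 34 of the 47 tested genes. The test was run on simulated reads with known changes, drawn independently for each gene and library. They lack the order of libraries that many genes share here, so they do not show the rate of false calls in these data. Exon lengths are of GENCODE 29, which is not stated to be the authors' annotation. The file's ends lie 1 base past the annotated ends, and ends are printed without it.

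Members and lists were chosen with earlier results of these data known. Genes named are OGDHL, members called or under the filter, the largest fold change and highest level per role group, and the top called gene per list; other genes were named after their values were seen. Alternatives were no rescaling, TPM as deposited or rescaled, pseudocount 1, no filter, a mean of at least 5, a replicate block, only the 6 libraries compared, robust eBayes, limma-voom on estimated reads with this rescaling in place of the planned TMM factors, leaving out each library and, added after seeing the data, the mitochondrial share of reads as a covariate.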

Additional observations from a re-analysis of the deposited data

How the results depend on the processing

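For all genes, the count with full-length OGDHL against eGFP was 2. It was 1 without rescaling, 1 with TPM as deposited, 3 with rescaled TPM, 7 without a filter, 1 with the replicate block, 8 with only the 6 libraries compared and 118 with the mitochondrial covariate, and 1 to 26 with 1 library left out. For dMTS OGDHL against eGFP it was 2390 as reported, 68 with TPM as deposited, 1263 with rescaled TPM, 1415 without a filter, 1013 with the replicate block, 1440 with only the 6 libraries compared, and 563 to 4251 with 1 library left out. The share of higher genes was 36.4% as reported and 10.3% with TPM as deposited. For dMTS against full-length it was 3, and 1 without rescaling, 0 with TPM as deposited, 1 with rescaled TPM, 0 without a filter, 23 at a mean of at least 5, 0 with the replicate block, 0 with only the 6 libraries, 14 with voom, 577 with the covariate, and 0 to 1726 with 1 library left out.

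For the dioxygenase genes, the 5 with dMTS against eGFP became 0 with TPM as deposited, 2 with rescaled TPM, 3 without a filter, 2 with the replicate block (KDM4B and KDM6B), 3 with only the 6 libraries compared, 8 with the covariate, and 2 to 12 with 1 library left out. The 0 with full-length OGDHL became 2 with the covariate and was 0 with any 1 library left out. The 0 between the rescue groups became 1 with the covariate, and 0 to 3 with 1 library left out. The 3 were ALKBH6, KDM6B and P4HA1, without dMTS replicate 1. Over single dioxygenase genes and alternatives, 2682 values kept their side of the threshold, 20 newly passed and 27 no longer did, and none changed direction while called. The cause was not tested.

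Same-numbered libraries had correlations of deviations from -0.519 to 0.105, with 1 of 9 pairs above 0.1, which gave no sign of pairing by number. With 3 libraries per group these correlations cannot exclude a pairing. EGLN3, ALKBH6 and P4HA1 lost their calls with the block. Log2 fold changes are equal there by construction, since every group holds the same replicate numbers, so their equality shows no robustness. The cause of the loss was not tested. Members under 1 TPM, such as KDM4B and EGLN3, have no value in the TPM alternatives. Depth limits PLOD2, at 12 to 597 estimated reads, and RIOX1, at 0 to 6.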
